A study of Mus musculus with 16 samples.

Results

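The effect of an agonist antibody against TIM-3 in IgE/antigen-activated mouse mast cells was compared between 2 h and 16 h of treatment. The comparison used 8 of the 16 two-colour arrays of the series: 4 from activated cells at 2 h and 4 from activated cells at 16 h. All cells were bone marrow cells grown in culture for more than 4 weeks with 5 ng/ml interleukin 3, 40 ng/ml stem cell factor and 10% serum, more than 90% of them positive for Fc-epsilon-RI alpha and c-kit by the submitters' account. Activated cells were loaded with 5 ug/ml anti-DNP IgE for 1 h and then received 100 ng/ml of the antigen DNP-HSA together with 15 ug/ml of the goat antibody or of goat IgG as control. The 8 arrays of resting cells, which had the same antibody or IgG for the same times without IgE and antigen, served as the second comparison. No strain, age or sex of the mice was used here, and the labels do not say that replicates came from separate cultures, so the p-values reflect how far these arrays scattered, part or all of which may be technical.

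TIM-3, encoded by Havcr2, is a cell-surface receptor of the T cell immunoglobulin and mucin family that is best known on T cells and myeloid cells. Mast cells carry the high-affinity IgE receptor, and antigen that bridges receptor-bound IgE triggers granule release within minutes. A wave of immediate early transcription factors, cytokines and chemokines follows, most of which is shut off again by feedback regulators and mRNA decay. On each array the cells given anti-TIM-3 carried Cy5 and the cells given IgG carried Cy3. The ratio below is the mean log2(Cy5/Cy3) over the 4 arrays of a time, and the difference is the ratio at 16 h minus the ratio at 2 h. The dyes were never exchanged, so a ratio at 1 time cannot be separated from the dye bias of a gene's own probe, whereas a bias equal on all arrays cancels in the difference.

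The mast cell label was borne out by the markers, as all 10 mast cell markers, Kit, Fcer1a and Cpa3 among them, were well above background on all 8 arrays. Macrophage and dendritic cell markers were also present, with 9 of 11 well above background on all 8 arrays. All 3 basophil markers, Mcpt8, Prss34 and Cd200r3, were well above background on all 8 arrays as well. So were 2 of 8 neutrophil, 2 of 5 eosinophil and 2 of 5 lymphocyte markers with a probe. Elane, Ngp and Camp of neutrophils and Epx and Ear1 of eosinophils were never well above background. Between 54.3% and 59.0% of the probes in Cy3 and between 54.6% and 66.0% in Cy5 were well above background on the activated arrays, and no spot of a tested gene was saturated. The number of arrays limits the precision. Within a time, an activated array's gene ratios correlated with those of the other 3 at a median r of 0.72 to 0.87 across genes, which are not independent replicates. The ratios of resting arrays correlated less, at a median r of 0.30 to 0.48.

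Of 17099 genes, 2938 (17.2%) had a ratio that differed between the times in limma's test with Benjamini-Hochberg adjusted p under 0.05. The ratio was higher at 16 h for 1562 genes (9.14%) and lower for 1376 (8.05%). Most differences were small, with a median size of 0.30 among the called genes, and 79 genes differed at least 2-fold, of which 61 were lower and 18 higher at 16 h. When arrays were centred on their median without loess, 4227 genes were higher and 1119 lower, and the median gene itself moved to 0.22 at 2 h and 0.39 at 16 h. With the slide as a fixed term 1026 genes were higher and 941 lower, and on the 1 slide that held both times the difference had the same sign for 2932 of 2937 called genes, which share those arrays. The change over time differed between activated and resting cells for 982 genes (5.74%), whereas in resting cells alone 50 genes (0.292%) changed.

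Combining the tests at the 2 times with the test of the difference gave 6 patterns. A transient effect was called at 2 h and not at 16 h, with a called difference, and held 595 raised genes (3.48%) and 493 lowered genes (2.88%). A late effect was called at 16 h and not at 2 h and held 647 raised (3.78%) and 438 lowered genes (2.56%). A declining effect was called at both times and smaller at 16 h, for 108 raised (0.632%) and 53 lowered genes (0.31%). A growing effect was larger at 16 h, for 78 raised (0.456%) and 37 lowered genes (0.216%). The growing genes fell from 115 to 60, 66 and 72 without 2 h replicates 2, 3 and 4, and the declining genes from 161 to 87, 92 and 98 without 16 h replicates 1, 2 and 4. A reversed effect was called in opposite directions at the 2 times, for 155 genes that went from raised to lowered (0.906%) and 231 from lowered to raised (1.35%). A sustained effect was called alike at both times with no called difference, for 1024 raised (5.99%) and 927 lowered genes (5.42%). Every class rests on a call against 0, which a dye bias of the probe can shift, and such a bias alone can mimic a sustained effect. Of the sustained genes, 958 of the 1024 raised and 865 of the 927 lowered had the same sign in resting cells at 2 h. So had 467 of the 595 raised and 416 of the 493 lowered transient genes. The same held for 102 of 108 and 53 of 53 declining, 68 of 78 and 34 of 37 growing, and 103 of 155 and 172 of 231 reversed genes. Late genes had no called 2 h ratio, and its sign matched that in resting cells for 379 of 647 raised and 254 of 438 lowered ones. No share over all genes stands beside these counts. When the resting ratio of the same time was subtracted, 319 genes were transient, 468 late, 129 sustained, 55 reversed, 12 growing and 11 declining.

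**Figure D1:**
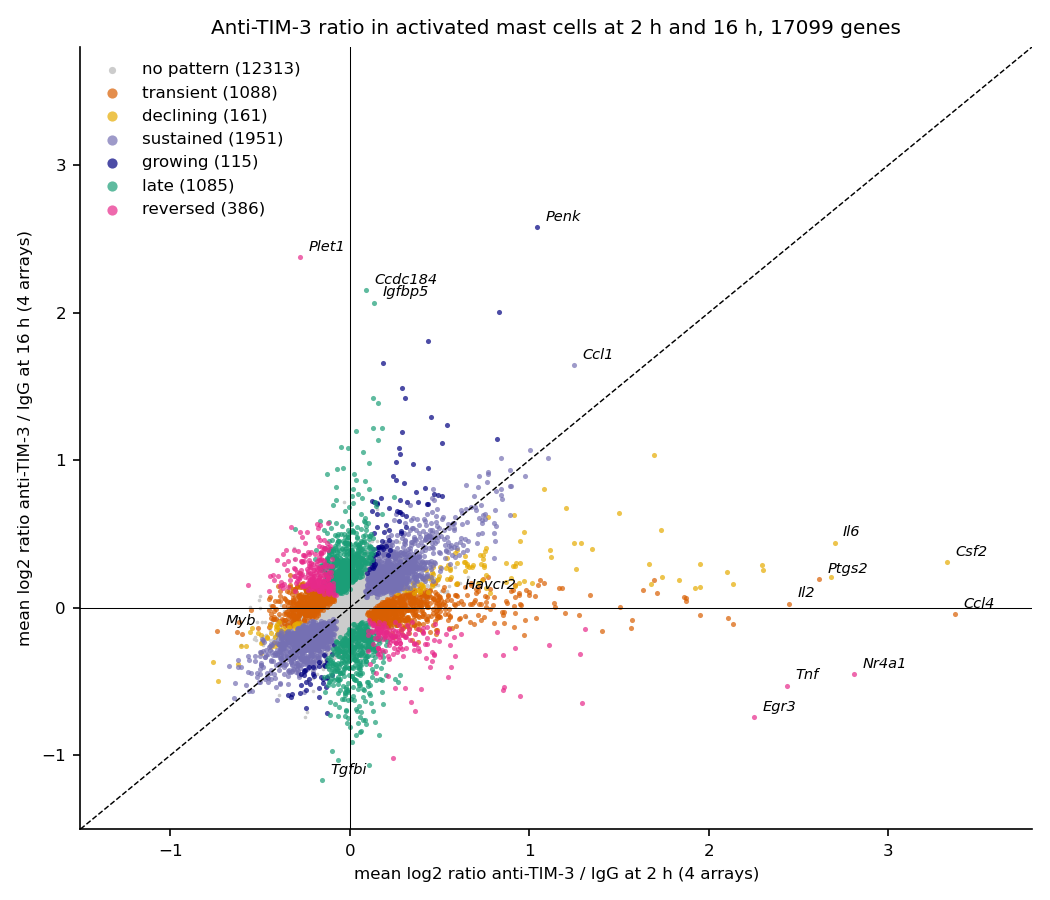
Mean log2 ratio of anti-TIM-3 over IgG at 2 h (horizontal) against 16 h (vertical) in activated cells, 1 point per gene for 17099 genes, coloured by time pattern; the dashed line marks equal ratios. The largest ratios at 2 h, such as Ccl4 at 3.37 and Csf2 at 3.33, lie near 0 at 16 h, while Plet1, Ccdc184 and Igfbp5 lie near 0 at 2 h and above 2.00 at 16 h.

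The largest effects of the antibody were early and brief. At 2 h, 66 genes (0.386%) were raised at least 2-fold and none of those 2-fold changes was a lowering. The median ratio of the 66 genes was 1.54 at 2 h and 0.15 at 16 h, with a range of -0.74 to 2.58 at 16 h. The pattern was transient for 29 of them, declining for 26, reversed for 7, sustained for 3 and growing for 1. The ratio was lower at 16 h for 62 of the 66, against 8.05% of all genes. The change differed from that in resting cells in the lower direction for 56, against 2.97% of all genes. Because the 66 were chosen by a high 2 h ratio, which enters both comparisons, that choice itself favoured a fall. At 2 h 33.3% of all genes were called, 17.1% raised and 16.3% lowered, and at 16 h 30.1%, 16.9% raised and 13.2% lowered. At 16 h, 34 genes were changed at least 2-fold, 30 raised and 4 lowered, and 5 genes were so at both times.

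For these genes the convergence came with a fall of the mRNA in both arms. Between 2 h and 16 h the anti-TIM-3 channel fell for 61 of the 66 genes, by a median of 2.92 on the log2 scale, against 26.1% of all genes. The choice of these genes by their 2 h ratio favours a high anti-TIM-3 level at 2 h, so the 2 shares are not strictly comparable. The IgG channel fell for 51, rose for 4 and had no called change for 11, with a median change of -1.40, against falls in 26.1% and rises in 33.9% of all genes. Levels were compared across arrays after quantile scaling of the A-values, so they rest on that scaling, unlike the ratios.

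The start regions of strongly changed genes are shown because many genes moved together. Sequences are from RefSeq (GRCm38.p6), read 5′ to 3′ on the gene's strand, and cover the 250 bases before an annotated transcription start. They belong to the 3 genes with the largest 2 h ratio among those with an entry, raised at least 2-fold at 2 h and lower at 16 h, and to the 2 with the largest 16 h ratio among late and growing genes. Capitals mark letters searched for on both strands in windows of 250 bases before to 50 after the start: GGNNTTTCC (NF-kappaB-like), TGANTCA (AP-1-like), TGACGTCA (CRE-like), TGGAAA (NFAT-like, which can overlap the first), GCGTGGGCG (Egr-like) and TATAAA, the letters of a TATA box. The Csf2 stretch is chr11:54249900-54250149 read on the minus strand, that of Nr4a1 is chr15:101266596-101266845 on the plus strand, that of Il6 is chr5:30012864-30013113 on the plus strand, that of Ccdc184 is chr15:98167556-98167805 on the plus strand and that of Igfbp5 is chr1:72874866-72875115 on the minus strand.
Csf2: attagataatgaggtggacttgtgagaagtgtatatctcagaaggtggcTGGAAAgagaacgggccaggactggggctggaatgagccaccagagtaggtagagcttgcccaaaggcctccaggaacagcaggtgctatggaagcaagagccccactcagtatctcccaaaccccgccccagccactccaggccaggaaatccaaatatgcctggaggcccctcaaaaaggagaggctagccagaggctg
Nr4a1: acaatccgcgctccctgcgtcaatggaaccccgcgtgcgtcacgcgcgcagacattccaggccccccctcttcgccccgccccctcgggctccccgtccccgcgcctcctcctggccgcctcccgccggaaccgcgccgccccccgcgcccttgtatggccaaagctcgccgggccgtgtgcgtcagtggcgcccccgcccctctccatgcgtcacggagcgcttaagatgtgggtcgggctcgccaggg
Il6: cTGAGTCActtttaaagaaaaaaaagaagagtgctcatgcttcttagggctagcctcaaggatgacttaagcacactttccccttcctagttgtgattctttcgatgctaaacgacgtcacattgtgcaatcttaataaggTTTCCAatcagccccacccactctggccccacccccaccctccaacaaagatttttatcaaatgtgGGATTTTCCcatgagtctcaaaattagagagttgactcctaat
Ccdc184: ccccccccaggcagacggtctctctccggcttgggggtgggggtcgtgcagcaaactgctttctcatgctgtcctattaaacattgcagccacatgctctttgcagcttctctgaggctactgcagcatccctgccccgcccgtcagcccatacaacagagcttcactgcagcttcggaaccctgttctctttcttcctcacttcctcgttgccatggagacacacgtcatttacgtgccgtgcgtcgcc
Igfbp5: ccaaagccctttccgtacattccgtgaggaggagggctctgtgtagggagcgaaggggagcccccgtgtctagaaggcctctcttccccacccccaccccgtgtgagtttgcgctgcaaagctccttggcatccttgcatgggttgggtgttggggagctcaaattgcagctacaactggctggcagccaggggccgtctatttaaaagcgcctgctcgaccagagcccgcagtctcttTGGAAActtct

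The 250 bases of Il6 held an AP-1-like, an NFAT-like and an NF-kappaB-like match, those of Csf2 and Igfbp5 an NFAT-like match, and those of Nr4a1 and Ccdc184 none of the letters searched. An entry was matched for 40 of the 62 genes raised at least 2-fold at 2 h and lower at 16 h, which gave 63 promoters because some genes have several starts. The NFAT-like letters were in 34.9% of them, against 17.2% of 14179 promoters of all tested genes and 21.4% of all 32851 promoters in the table. The CRE-like letters were in 7.94%, against 2.77% and 1.79%, and the Egr-like letters in 4.76%, against 1.1% and 0.612%. NF-kappaB-like letters were in 9.52%, against 5.95% and 5.82%, AP-1-like letters in 9.52%, against 5.67% and 7.81%, and TATAAA in 17.5%, against 8.55% and 13.6%. In 79 promoters of late and growing genes raised at least 1.5-fold at 16 h the shares were 24.1% for NFAT-like, 1.27% for CRE-like, 3.8% for Egr-like and 8.86% for each of the other 3. In 34 promoters of late genes lowered at least 1.5-fold they were 14.7% for NFAT-like and AP-1-like, 11.8% for NF-kappaB-like, 2.94% for CRE-like and 29.4% for TATAAA, and none held the Egr-like letters. These shares rest on few promoters, are a description without a test, and a match is not a site.

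Cytokines, the secreted signals through which activated mast cells act on other cells, carried much of the early effect. Of 31 tested cytokine and growth factor genes 22 had a lower ratio at 16 h and none a higher one, against 8.05% and 9.14% of all genes. Their median ratio was 0.64 at 2 h and 0.06 at 16 h, and their median difference of -0.62 stood beside 0.01 over all genes. The change differed from that in resting cells, in the lower direction, for 18 of the 31, against 2.97% of all genes.

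Csf2 encodes the growth factor GM-CSF and was raised 10.0-fold at 2 h, with ratios of 3.36, 3.20, 3.23 and 3.51 on the 4 arrays. At 16 h the ratios were 0.46, 0.34, 0.14 and 0.28, so all 4 lay far below every 2 h array and all were still above 0. The difference was -3.02 ± 0.07 (SE, adjusted p = 1.01e-13, limma). Its level fell by 6.73 in the anti-TIM-3 channel and fell by 3.71 in the IgG channel, and at 16 h the IgG channel was well above background on 2 of 4 arrays, a range in which the offset of 50 added to the signals draws a ratio toward 0. With Agilent's processed signals, which have no such offset, the 16 h ratio of Csf2 was 1.15, still below its 2 h ratio of 3.40.

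Il2, the T cell growth factor, had ratios of 2.36, 2.40, 2.34 and 2.68 at 2 h and of 0.09, 0.02, 0.03 and -0.03 at 16 h. The 2 times did not overlap, and the difference was -2.42 ± 0.06 (SE, adjusted p = 1.02e-13), again with an IgG channel well above background on 2 of 4 arrays at 16 h. Il4, which drives type 2 responses, went from 2.18, 2.09, 1.96 and 2.32 to -0.12, -0.03, -0.19 and -0.10. Here both channels were well above background on all arrays, and the difference was -2.24 ± 0.07 (SE, adjusted p = 1.45e-12). Under median centring, however, Il4 kept a called ratio of 0.40 at 16 h (adjusted p = 5.0e-06) and was declining, and Il2 was at -0.14 and reversed. Il6, an inflammatory cytokine, had 2 h ratios of 2.61, 2.66, 2.53 and 3.00 and kept 0.46, 0.46, 0.32 and 0.53 at 16 h. It was thus declining rather than transient, with a remaining 1.36-fold elevation (adjusted p = 2.94e-05 against 0), and its 16 h ratio was 1.16 under median centring.

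Tnf, the inflammatory cytokine stored and newly made by mast cells, crossed to the other side. Its ratios were 2.52, 2.34, 2.27 and 2.62 at 2 h and -0.52, -0.56, -0.46 and -0.56 at 16 h, a 5.42-fold elevation followed by a 1.44-fold lowering. Each time had 1 sign on all 4 arrays, and the difference was -2.96 ± 0.09 (SE, adjusted p = 8.52e-13), although under median centring the 16 h ratio was not called (-0.09). In resting cells the ratios of Tnf were 0.06 and 0.14 at the 2 times, and the changes differed by -3.05 (adjusted p = 1.97e-10). Hbegf, a ligand of the EGF receptor, fell from 2.30 ± 0.19 (SD, n = 4) to 0.29 ± 0.14 (adjusted p = 1.05e-10 for the difference). Among the other cytokines, Csf1 went from 0.86 to -0.53 and Osm from 0.50 to -0.22, and both were reversed like Tnf. Il13, Il31, Areg and Ifng were transient, with 2 h ratios of 1.51, 1.95, 1.86 and 1.03 and 16 h ratios between -0.05 and 0.08. Not every cytokine followed: Il1b (0.64 and 0.83), Il9 (0.45 and 0.48) and Il33 (0.63 and 0.38) had no called difference, and Ltb, Il15 and Il16 were lowered late.

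**Figure D2:**
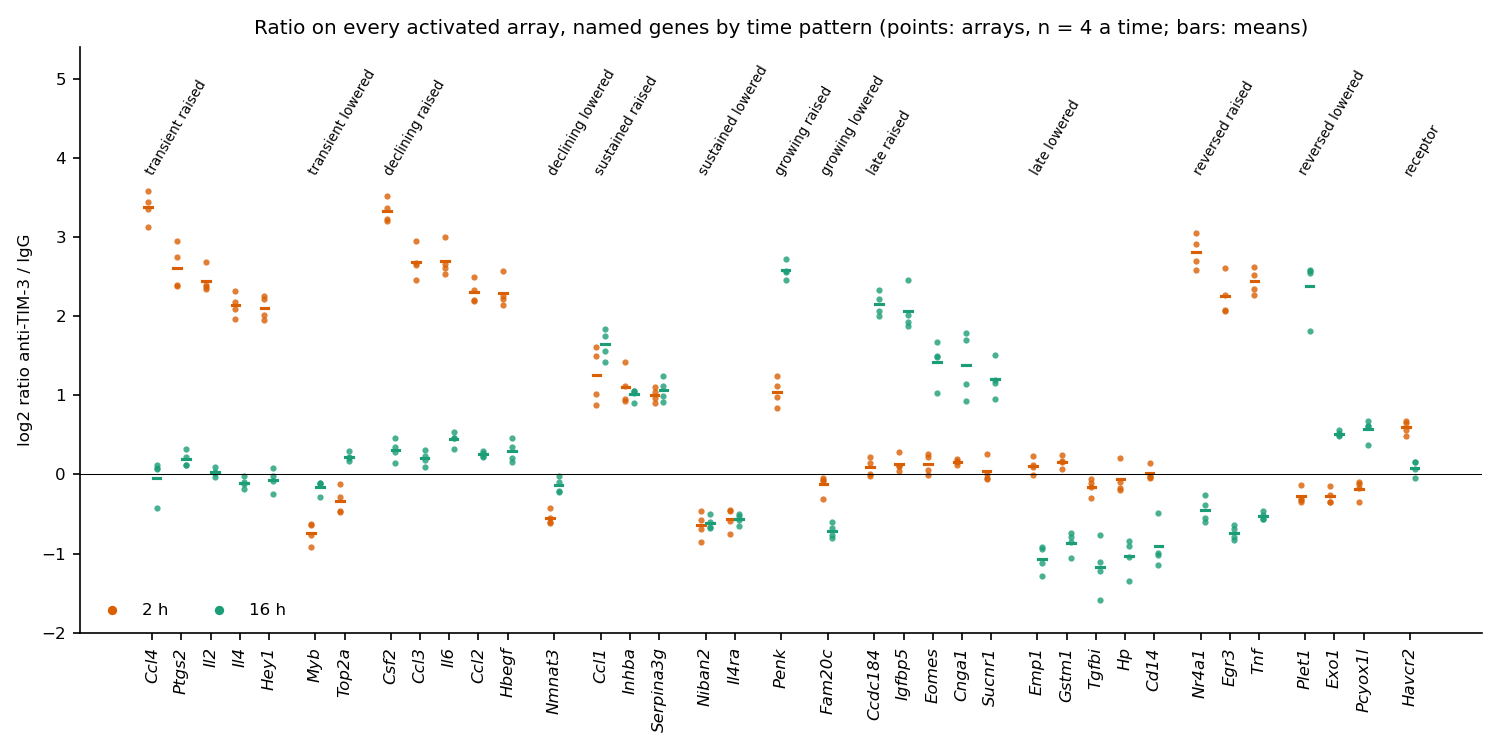
Log2 ratio of anti-TIM-3 over IgG on each activated array for the 37 named genes, grouped by time pattern; points are arrays (4 at 2 h, 4 at 16 h) and short bars are means. The 2 h and 16 h points of Ccl4, Csf2, Tnf, Nr4a1, Penk, Ccdc184 and Plet1 do not overlap, whereas those of Inhba, Serpina3g, Niban2 and Il4ra do.

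Chemokines, which recruit leukocytes, split into an early and a late set. Of 23 tested, 10 had a lower and 4 a higher ratio at 16 h, against 8.05% and 9.14% of all genes. The median difference of the 23 was -0.24. Ccl4 and Ccl3, which attract monocytes and T cells, were raised 10.4-fold and 6.41-fold at 2 h. Ccl4 had 2 h ratios of 3.13, 3.44, 3.35 and 3.58 and 16 h ratios of 0.06, 0.12, -0.43 and 0.08, and its difference of -3.42 ± 0.17 (SE, adjusted p = 4.46e-10) was the largest among the named genes. Ccl3 went from 2.46, 2.65, 2.67 and 2.94 to 0.18, 0.31, 0.10 and 0.23. For neither gene did any 16 h array reach a 2 h array, but under median centring both were raised at 16 h, Ccl4 at 0.57 (adjusted p = 0.00037) and Ccl3 at 0.92, so Ccl4 was declining there. Ccl3 counted as declining at an adjusted p of 0.0309 at 16 h, a class it lost with Agilent's processed signals (ratio 0.21, adjusted p = 0.052). In resting cells the 2 h ratios of Ccl4 and Ccl3 were 1.00 and 1.29. There too both ratios changed by -1.24 until 16 h (adjusted p = 0.0039 and 9.5e-06, limma). The changes in activated and resting cells differed by -2.18 for Ccl4 and -1.23 for Ccl3.

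Ccl2, a monocyte chemoattractant, differed in how the arms converged. Its ratios were 2.19, 2.33, 2.20 and 2.50 at 2 h and 0.23, 0.27, 0.29 and 0.23 at 16 h, a difference of -2.05 ± 0.07 (SE, adjusted p = 2.09e-12), with 1.20 at 16 h under median centring. The anti-TIM-3 channel fell by 1.45, but the IgG channel rose by 0.60 (adjusted p = 5.6e-07), so by 16 h the control cells had gained the mRNA. In resting cells the ratio of Ccl2 also fell, from 1.13 to 0.44 (adjusted p = 0.00014, limma), and the changes differed by -1.36. Ccl7, Cxcl2 and Xcl1 declined from 2.10, 1.92 and 1.83 to 0.24, 0.13 and 0.19.

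The type 2 chemokine genes Ccl17 and Ccl24 grew from 0.43 to 1.81 and from 0.45 to 1.30, and Ccl22 was late, at 0.02 and 0.51. Ccl1, a ligand of CCR8, was the leading gene of the sustained pattern. Its ratios were 1.61, 1.02, 0.88 and 1.49 at 2 h and 1.84, 1.43, 1.75 and 1.56 at 16 h, so the 2 sets overlapped, and the difference of 0.39 had a 95% interval of 0.08 to 0.71 (adjusted p = 0.0841). With an offset of 16 (0.66, adjusted p = 0.00632), with Agilent's processed signals (1.07, adjusted p = 0.00109) and without 2 h replicate 1 (0.51, adjusted p = 0.0246) that difference was called and Ccl1 became growing. Its ratio held while the mRNA left: the level fell by 6.15 in the anti-TIM-3 channel and fell by 6.54 in the IgG channel. In resting cells its ratio went from 0.71 to 0.11, and the changes differed by 0.99 (adjusted p = 0.00854).

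**Figure D3:**
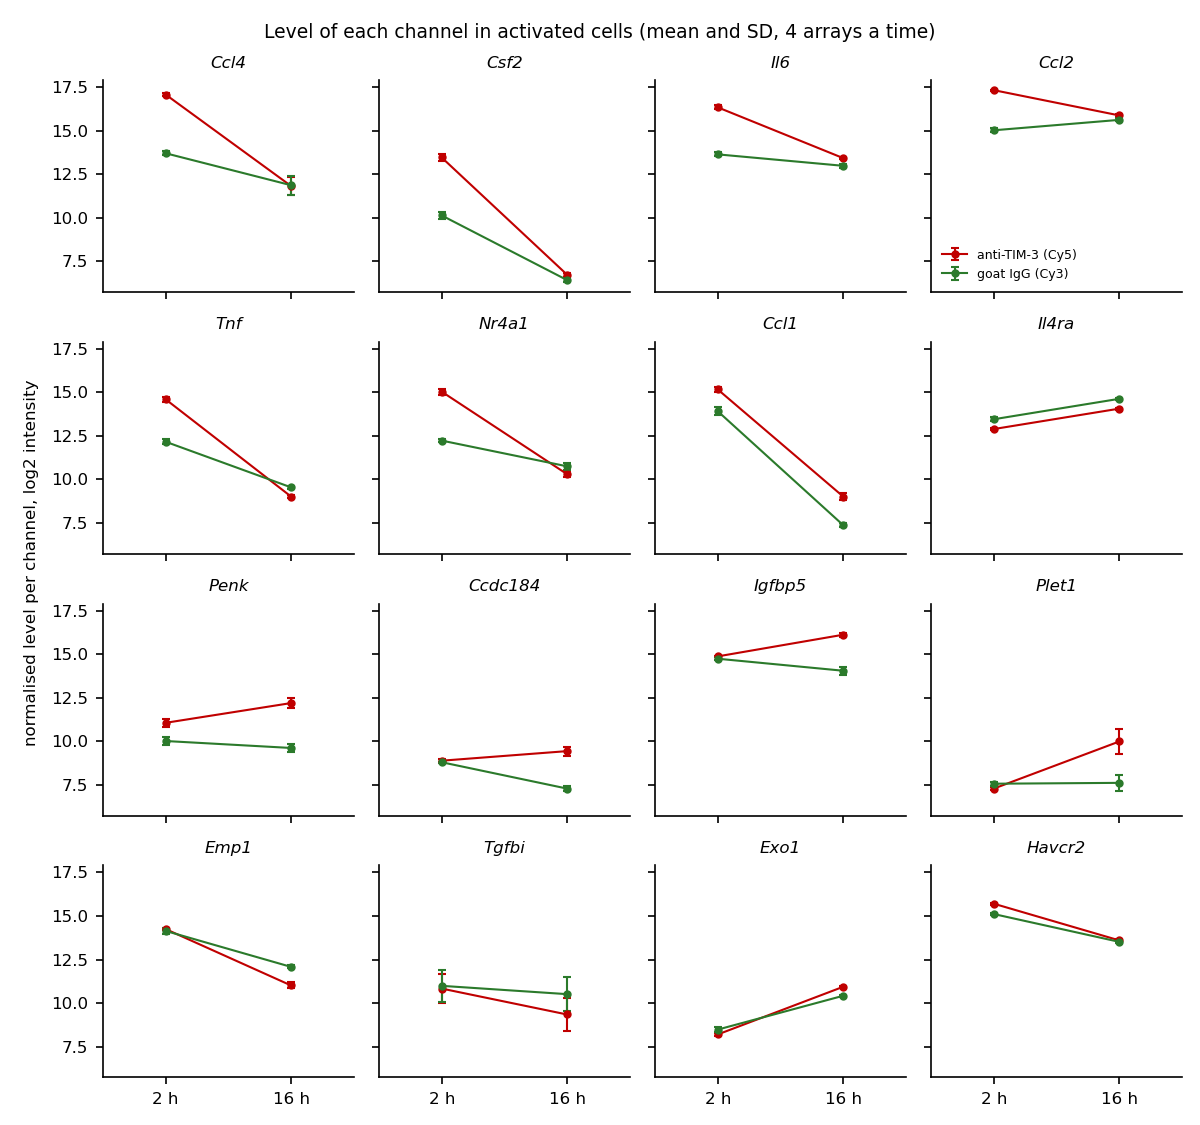
Normalised log2 intensity of the anti-TIM-3 channel (Cy5) and the IgG channel (Cy3) at 2 h and 16 h in activated cells for 16 named genes; points are means of 4 arrays and bars are SD. Both channels of Csf2 and Ccl1 fall steeply, that of IgG rises for Ccl2, and for Plet1 the anti-TIM-3 channel alone rises, by 2.70.

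Immediate early genes encode the transcription factors and regulators that are switched on first after a stimulus. Of 33 tested, 27 had a lower ratio at 16 h and none a higher one, against 8.05% and 9.14% of all genes. Their median ratio was 0.52 at 2 h and -0.10 at 16 h. The change differed from that in resting cells, in the lower direction, for 20 of the 33, against 2.97% of all genes.

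Nr4a1, an orphan nuclear receptor, was raised 7.01-fold at 2 h with ratios of 2.58, 2.91, 2.69 and 3.05. At 16 h its ratios were -0.55, -0.26, -0.60 and -0.39, a 1.37-fold lowering, and the difference was -3.26 ± 0.10 (SE, adjusted p = 5.56e-13). Egr3, a zinc finger factor, went from 2.07, 2.27, 2.08 and 2.60 to -0.69, -0.64, -0.82 and -0.80, a difference of -2.99 ± 0.13 (SE, adjusted p = 3.93e-11). Both genes were on opposite sides of 0 on every array of the 2 times, but under median centring Nr4a1 was at 0.07 at 16 h with no call while Egr3 stayed lowered (-0.56). Both also had a raised 2 h ratio in resting cells, 0.80 for Nr4a1 and 1.00 for Egr3, and the changes differed by -2.36 (adjusted p = 6.42e-09) and -1.74 (adjusted p = 1.22e-05). Egr1 was reversed likewise (1.30 and -0.65), as was Fosl2 (0.92 and -0.27). The related factors Nr4a2 (0.95 and 0.02) and Nr4a3 (1.34 and 0.09) and the AP-1 members Fosb (1.14 and 0.03) and Junb (0.86 and -0.10) were transient. Jun was lowered at both times (-0.29 and -0.39), with no called difference.

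Feedback inhibitors of MAP kinase and calcineurin signalling moved the same way: 10 of 18 had a lower ratio at 16 h and none a higher one, with a median difference of -0.31. For this group and the next 2, the shares over all genes were 8.05% lower and 9.14% higher. Spry1, an inhibitor of receptor tyrosine kinase signalling, went from 1.63 to 0.12, and Errfi1, an inhibitor of the EGF receptor, from 0.85 to -0.32. The phosphatase gene Dusp6 was lowered late (0.18 and -0.57), whereas Dusp4 (0.71 and 0.82) and Dusp10 (0.47 and 0.73) had no called difference. Under median centring 3 members of this group were higher at 16 h. Of 30 NF-kappaB subunits, inhibitors and targets, 10 were lower and 3 higher at 16 h, and their median difference of -0.08 became 0.06 under median centring. The nuclear inhibitors Nfkbiz (1.28 and -0.05) and Nfkbid (1.20 and -0.04) and the subunit Rel (0.98 and 0.12) were transient. Of 17 STAT5 targets and SOCS family members 8 were lower and none higher (4 higher under median centring), among them the feedback inhibitors Cish (0.55 and -0.14) and Socs1 (0.39 and -0.30).

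Hey1, a repressor downstream of Notch, was transient, with 1.95, 2.25, 2.01 and 2.21 at 2 h and -0.25, -0.09, -0.02 and 0.08 at 16 h (difference -2.18 ± 0.07 SE, adjusted p = 2.09e-12). Ptgs2, the inducible cyclooxygenase, was raised 6.12-fold at 2 h with 2.39, 2.75, 2.37 and 2.95, and had 0.32, 0.11, 0.22 and 0.12 at 16 h. All 16 h values lay below the 2 h values but above 0, with an adjusted p of 0.053, so its class turned to declining with an offset of 16 (16 h ratio 0.30, adjusted p = 0.00912) and with Agilent's processed signals (0.68). Some other enzymes of eicosanoid synthesis, which make prostaglandins and leukotrienes, took the opposite course. The constitutive cyclooxygenase Ptgs1 (0.04 and 0.47), the leukotriene C4 synthase Ltc4s (-0.01 and 0.48) and the thromboxane synthase Tbxas1 (-0.06 and 0.45) were raised late, and Alox5, the 5-lipoxygenase, grew from 0.38 to 0.71. Of the 14 tested, 5 were higher and 3 lower at 16 h, against 9.14% and 8.05% of all genes. The 3 lower ones were 2 transient raised genes, Ptgs2 among them, and 1 late lowered gene.

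Havcr2, which encodes the targeted receptor, had a lower ratio at 16 h than at 2 h, and was transient with loess. Its ratios were 0.49, 0.65, 0.67 and 0.56 at 2 h, a 1.51-fold elevation, and 0.06, 0.15, -0.04 and 0.16 at 16 h. The 2 sets did not overlap, and the difference was -0.51 ± 0.08 (SE, adjusted p = 0.000247). Its level fell by 2.11 in the anti-TIM-3 channel and fell by 1.60 in the IgG channel. The change did not differ from that in resting cells past the threshold (-0.23, adjusted p = 0.296), its pattern was sustained after the resting ratios were subtracted, and averaging all its probes left a ratio of 0.17 at 16 h (adjusted p = 0.0028). Under median centring it was declining and still raised at 16 h, with ratios of 1.39 and 0.84 (adjusted p = 8.3e-09 at 16 h). In the list of TIM family, ligand and inhibitory receptor genes 4 of 17 were lower and 1 higher, against 8.05% and 9.14% of all genes. The median difference of the 17 was -0.05. Vsir, the checkpoint protein VISTA, was reversed (0.40 and -0.55), Cd274, the ligand PD-L1, was transient (0.43 and -0.09) and Lag3 was raised late (-0.13 and 0.30).

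Late increases were led by genes outside the cytokine families. Ccdc184, a coiled-coil protein gene, had 2 h ratios of 0.22, 0.14, -0.02 and 0.01 and 16 h ratios of 2.21, 2.33, 2.00 and 2.07, a 4.45-fold elevation (difference 2.06 ± 0.08 SE, adjusted p = 9.46e-12). The arms separated in both directions, since the anti-TIM-3 channel rose by 0.55 and the IgG channel fell by 1.51. Igfbp5, an insulin-like growth factor binding protein, went from 0.28, 0.04, 0.11 and 0.11 to 2.45, 1.93, 1.88 and 2.02 (difference 1.93 ± 0.14 SE, adjusted p = 3.99e-08). Its level rose by 1.24 with anti-TIM-3 and fell by 0.69 with IgG. Under median centring the 2 h ratios of Ccdc184 and Igfbp5 were called too (0.34 and 0.87), which made both growing.

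The T-box factor Eomes was at 0.05, 0.22, 0.26 and -0.01 and then at 1.68, 1.48, 1.03 and 1.49. Cnga1, a cyclic nucleotide-gated channel subunit, was at 0.17, 0.20, 0.12 and 0.15 and then at 0.93, 1.70, 1.14 and 1.78. Sucnr1, the succinate receptor, was at -0.06, -0.05, 0.26 and -0.00 and then at 1.51, 1.15, 0.95 and 1.19. In all 3 genes every 16 h array lay above every 2 h array, with adjusted p-values of 1.84e-07, 6.14e-06 and 3.57e-07, and all were dim at 2 h, with log2 levels of 6.47 to 7.05.

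Plet1, a surface protein gene best known from epithelial progenitors, had 2 h ratios of -0.33, -0.34, -0.13 and -0.31 and 16 h ratios of 2.58, 1.82, 2.57 and 2.54. It was raised 5.19-fold at 16 h, and the difference of 2.65 ± 0.12 (SE, adjusted p = 1.44e-10) was the largest increase among the named genes. Only its anti-TIM-3 channel had a called change, a rise by 2.70, against 0.05 in the IgG channel. The lowering at 2 h that placed it among the reversed genes was lost when resting ratios were subtracted, which made it late, and the difference was 1.66 when all its kept probes were averaged. Penk, the precursor of enkephalins, was raised at both times and more so later. Its ratios were 0.84, 1.24, 0.98 and 1.12 at 2 h and 2.56, 2.72, 2.46 and 2.58 at 16 h, so a 2.06-fold elevation became 5.97-fold (difference 1.53 ± 0.12 SE, adjusted p = 1.71e-07). In resting cells its ratio was 0.02 at both times.

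Inhba, which encodes the activin A subunit, was raised alike at both times, with 0.93, 1.42, 1.12 and 0.95 at 2 h and 1.06, 1.03, 0.90 and 1.06 at 16 h. The times overlapped, and the difference of -0.09 had a 95% interval of -0.29 to 0.11. Its resting ratios were 0.16 and 0.06, and it stayed sustained when they were subtracted. Serpina3g, a serpin, was raised to 1.00 ± 0.09 (SD, n = 4) and 1.07 ± 0.15, with an interval of -0.08 to 0.21, but in resting cells its ratio also reached 0.66 at 16 h. Among sustained lowered genes, Niban2 (-0.64 and -0.61, interval -0.13 to 0.19) had resting ratios of -0.54 and -0.38, and with these subtracted it had no pattern. Il4ra, the interleukin 4 receptor chain, was at -0.46, -0.59, -0.45 and -0.75 and then at -0.66, -0.57, -0.53 and -0.50, with an interval of -0.21 to 0.20 and resting ratios of -0.32 and 0.06. Neither lowering was seen under median centring, where the 16 h ratio of Niban2 was 0.04 and that of Il4ra 0.26.

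Ribosomal protein genes were the clearest case in which a ratio at 1 time cannot be told apart from dye bias: their median was 0.49 at 2 h and 0.42 at 16 h, and 1 of 26, Rplp1, had a called difference (0.82 and 1.14). Granule proteases and mediators, the preformed cargo of mast cells, had a small median difference of -0.09, which was 0.01 under median centring. Of 20 tested, 4 were lower and none higher, against 8.05% and 9.14% of all genes. Mcpt4, a chymase, went from 0.41 to 0.13, and Hdc, the histamine-forming enzyme, had 0.90 and 0.83 with no called difference. Of 24 mast cell receptors 4 were lower and 2 higher at 16 h, but under median centring 3 were lower and 9 higher. Fcer1a, the IgE-binding chain, was raised late (0.08 and 0.86, adjusted p = 0.011), Siglecf was transient (0.75 and -0.07), and the interleukin 33 receptor Il1rl1 had 0.72 and 0.89 with no called difference.

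**Figure D4:**
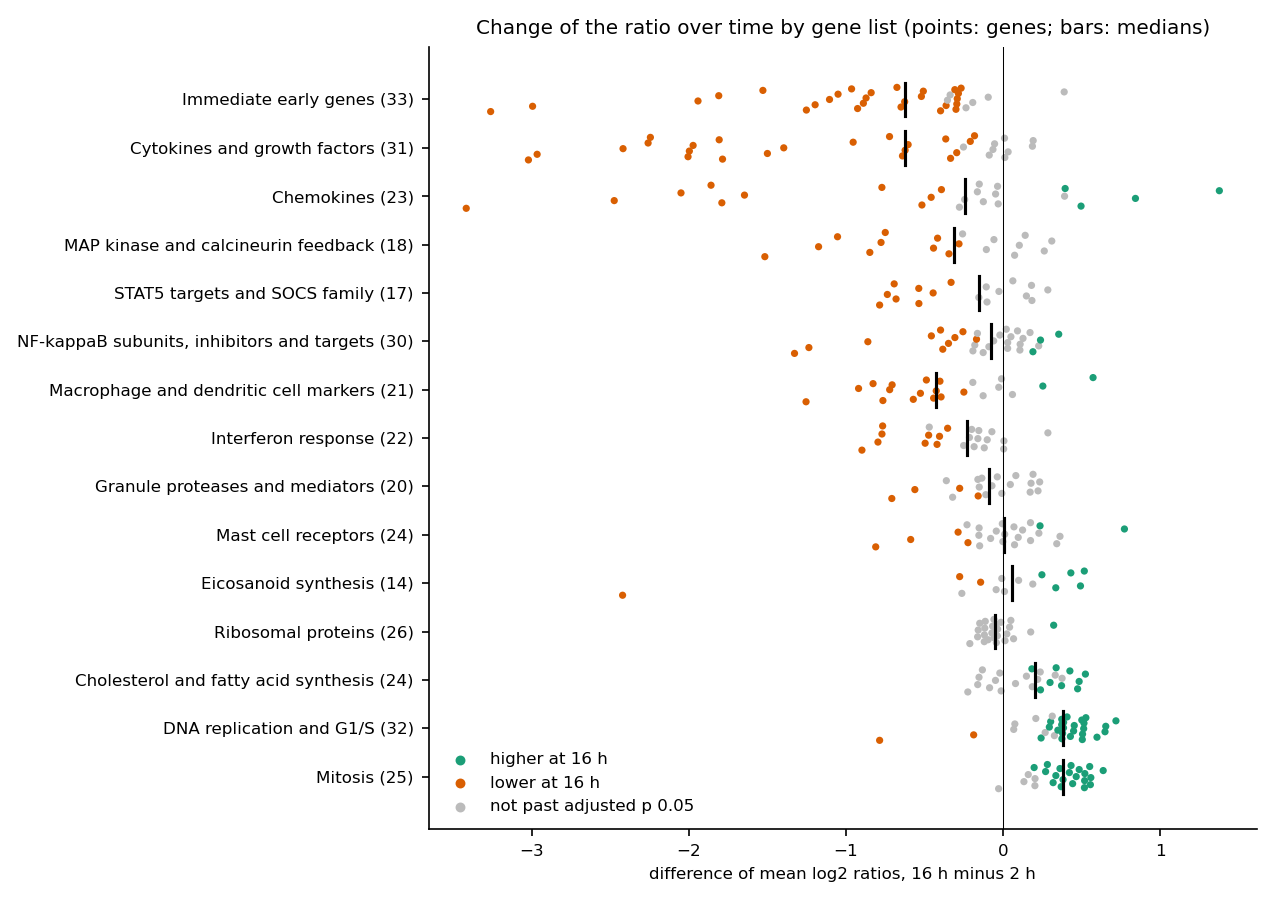
Difference of the mean log2 ratios, 16 h minus 2 h, for the members of 15 gene lists in activated cells; each point is a gene, coloured where its adjusted p is under 0.05, black bars are list medians, and the number of tested genes follows each name. Immediate early genes and cytokines lie to the left with medians of -0.63 and -0.62, and DNA replication and mitosis genes lie to the right with medians of 0.38.

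Cell-cycle genes moved against the cytokine genes. Of 32 genes of DNA replication and G1/S entry 24 had a higher ratio at 16 h and 2 a lower one, and of 25 mitosis genes 20 were higher and none lower, against 9.14% and 8.05% of all genes. The median ratio of the replication genes went from -0.11 to 0.27 and that of the mitosis genes from -0.17 to 0.19. The helicase subunit Mcm6 (-0.57 and 0.15), the ribonucleotide reductase subunit Rrm2 (-0.18 and 0.48) and the proliferation marker Mki67 (-0.31 and 0.33) were reversed from lowered to raised, a class that Mcm6 kept in 8 of 20 settings, Rrm2 in 18 and Mki67 in 19. Exo1, an exonuclease of DNA repair, had -0.35, -0.35, -0.26 and -0.15 at 2 h and 0.49, 0.52, 0.50 and 0.56 at 16 h, with no overlap (difference 0.80 ± 0.09 SE, adjusted p = 5.12e-06). Top2a, the topoisomerase of dividing cells, had -0.12, -0.46, -0.47 and -0.29 and then 0.30, 0.21, 0.16 and 0.22 (difference 0.56 ± 0.13 SE, adjusted p = 0.00724), which with the slide as a fixed term missed the threshold (0.57, adjusted p = 0.0527).

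The mRNA of Top2a and Exo1 rose in both arms over time, Top2a by 1.93 with anti-TIM-3 and by 1.38 with IgG, and Exo1 by 2.74 and 1.94. Of all genes, 34.4% rose in the anti-TIM-3 channel and 33.9% in the IgG channel, and these levels rest on the scaling across arrays. The replication genes also had a median difference of 0.20 in resting cells, and the change differed from that in resting cells for 5 of 32 replication genes and 8 of 25 mitosis genes, all in the higher direction, against 2.78% of all genes. In these bulk samples fewer cells of a kind and less RNA per cell cannot be told apart. The D-type cyclin Ccnd2 opposed its list, going from 0.47 to -0.32, and Myb, a factor of immature blood cells, was lowered at 2 h only, from -0.77, -0.64, -0.63 and -0.91 to -0.11, -0.12, -0.29 and -0.11 (difference 0.58 ± 0.10 SE, adjusted p = 0.000694). Cdkn1a, the cell-cycle inhibitor p21, was transiently raised (0.74 and 0.19). Of 24 genes of cholesterol and fatty acid synthesis 9 were higher and none lower at 16 h, against 9.14% and 8.05% of all genes. Mvd (-0.36 and 0.16) and Scd1 (0.15 and 0.64) were among the 9.

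Late decreases included many genes of macrophages and dendritic cells. Of 21 tested markers 14 had a lower ratio at 16 h and 2, Itgax and C1qc, a higher one, against 8.05% and 9.14% of all genes. Their median ratio was close to 0 at 2 h and -0.36 at 16 h, and the change differed from that in resting cells for 12, lower for 10 and higher for 2, against 2.97% and 2.78% of all genes. Cd14, the lipopolysaccharide co-receptor, had 0.14, -0.03, -0.02 and -0.04 at 2 h and -1.02, -0.49, -0.99 and -1.14 at 16 h (difference -0.92 ± 0.11 SE, adjusted p = 9.35e-06). The lysozyme gene Lyz2 went from 0.13 to -0.70, the beta-glucan receptor Clec7a from 0.24 to -1.02 and the receptor Csf1r from -0.02 to -0.55. The summed level of the 11 fixed macrophage and dendritic cell markers in the IgG channel was 15.6, 14.5, 15.2 and 15.8 on the 2 h arrays and 15.6, 14.4, 15.3 and 16.0 on the 16 h arrays, in log2 units, lowest in replicate 2 and highest in replicate 4 at both times. In the anti-TIM-3 channel the sum exceeded that of IgG by 0.07 to 0.14 at 2 h and lay below it by 0.40 to 0.70 at 16 h, on all 4 arrays.

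Tgfbi, a matrix protein induced by TGF-beta, was among the strongest of the late lowered genes, with -0.30, -0.06, -0.15 and -0.11 and then -1.58, -1.22, -0.77 and -1.11 (difference -1.01 ± 0.13 SE, adjusted p = 3.07e-05). Hp, which encodes haptoglobin, had -0.17, -0.10, 0.20 and -0.20 and then -1.34, -0.84, -0.90 and -1.04 (adjusted p = 5.5e-06). Emp1, an epithelial membrane protein gene, had -0.01, 0.09, 0.12 and 0.23 and then -1.29, -1.11, -0.95 and -0.91 (adjusted p = 1.63e-06). Gstm1, a glutathione transferase, had 0.07, 0.25, 0.15 and 0.17 and then -1.06, -0.74, -0.79 and -0.85 (adjusted p = 1.27e-06). In each of the 4 the times did not overlap. The late class did not hold under median centring: Tgfbi (0.22 and -0.69), Hp (0.19 and -0.73) and Emp1 (0.78 and -0.48) were then reversed, like Cd14 (0.41 and -0.47), and Gstm1 was transiently raised (0.89 and -0.16). The cysteine proteases Ctsl (0.06 and -0.84) and Ctss (0.11 and -0.28), the neutrophil collagenase Mmp8 (0.08 and -0.76) and myeloperoxidase, Mpo (-0.17 and -0.60), were lower at 16 h too. Mmp8 and Mpo were the only 2 of 9 neutrophil markers called lower, with none higher and a median difference of -0.12. Mpo kept its class in 9 of 20 settings. Ctsl and Ctss are from 25 lysosome and granule body genes, of which 4 were lower and none higher, with a median difference of 0.01. For both lists the shares over all genes were 8.05% lower and 9.14% higher. The part that the share of macrophage-like cells had in these late decreases was not tested.

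Interferon-stimulated genes, which encode antiviral effectors, were also lowered late with loess. Of 22 tested, 9 had a lower ratio at 16 h and none a higher one, against 8.05% and 9.14% of all genes. The medians of the 22 were 0.02 at 2 h and -0.31 at 16 h. Rsad2 (0.06 and -0.84), Ifit1 (0.06 and -0.74) and Oasl2 (0.12 and -0.65) led them, with adjusted p-values of 8.7e-06, 4.8e-05 and 3.1e-05. The change differed from that in resting cells for 11 of the 22, all in the lower direction, against 2.97% of all genes. Their median difference in resting cells was 0.10. Under median centring 6 of the 22 were lower and 1 higher, with a median difference of -0.16. In that setting the median of all genes was 0.39 at 16 h, so a lowering at 16 h depends on the normalisation.

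Matrix genes were mixed, with 7 of 16 lower and 3 higher at 16 h, against 8.05% and 9.14% of all genes. The secreted phosphoprotein Spp1 was reversed (1.28 and -0.31), as was Timp3, an inhibitor of matrix proteases (0.82 and -0.17). Among peptide precursors Edn1, endothelin 1, declined from 1.70 to 1.04 and Stc2, stanniocalcin 2, grew from 0.24 to 0.89. In the TGF-beta and activin list, which shares members with other lists, 6 of 18 were lower and none higher (3 higher under median centring). Fst, which binds activin, declined from 1.73 to 0.53, while Inhba, the gene of its ligand, held. Nmnat3, an enzyme of NAD synthesis, was the leading declining lowered gene (-0.55 and -0.14, adjusted p = 0.000625), Fam20c, a secretory pathway kinase, the leading growing lowered gene (-0.13 and -0.71, adjusted p = 6.57e-06), and Pcyox1l, a gene related to prenylcysteine oxidase, was reversed from -0.18 to 0.57 (adjusted p = 1.04e-06). The classes of Nmnat3 and Fam20c rested on ratios near the threshold and held in 10 and 11 of 20 settings.

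**Figure D5:**
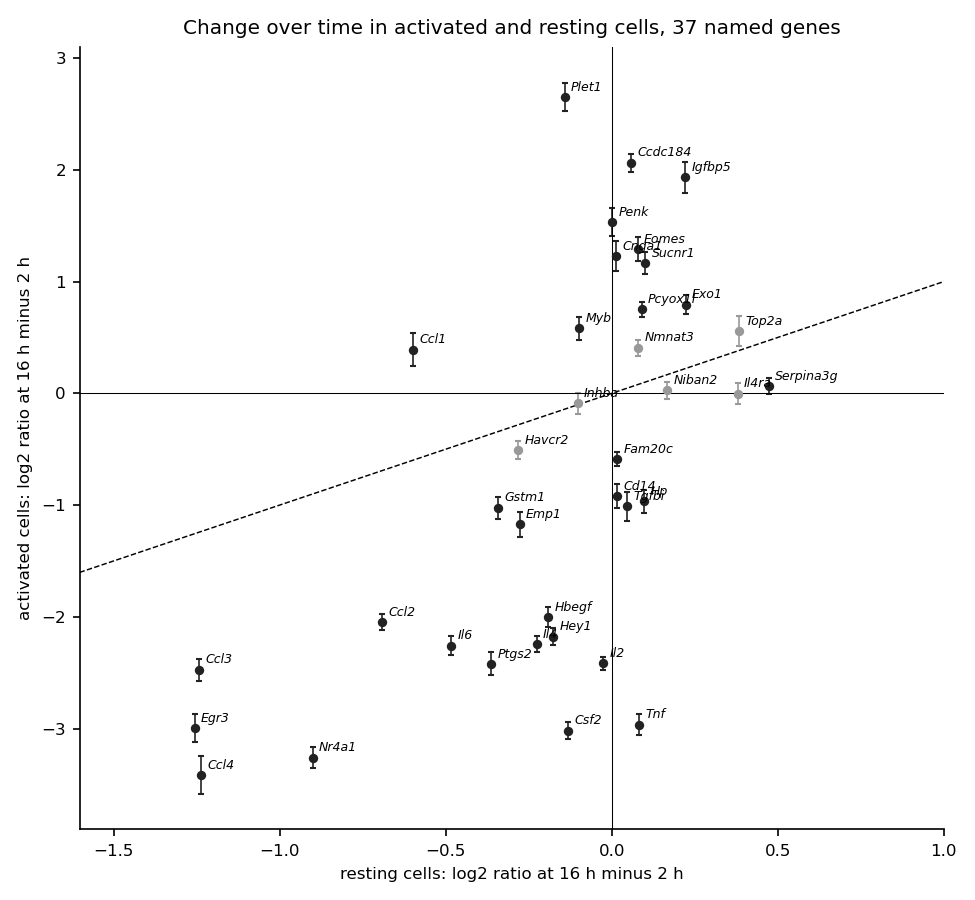
Change of the log2 ratio from 2 h to 16 h in resting cells (horizontal) and activated cells (vertical) for the 37 named genes; vertical bars are standard errors in activated cells, black points have a change that differs between the cell states at adjusted p under 0.05, grey points do not, and the dashed line marks equal change. Tnf changed by -2.96 in activated and 0.08 in resting cells, whereas Havcr2, at -0.51 and -0.28, is grey.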

How the data were processed

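The deposited scanner files give spot intensity on a linear scale from 2-colour Agilent whole-genome mouse arrays, written by Feature Extraction software from Agilent (9.1.3.1 per the file headers, while the submitters' processing notes say 9). The Dual-Color protocol was version 5.5, per the labels. The authors' deposited value table holds log10 ratios that equal the LogRatio column of those files (largest difference 0), so it gave no second set of values.

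Mean intensities (rMeanSignal, gMeanSignal) were background-corrected with normexp (offset 50), put on the log2 scale (the authors deposited log10, not log2, ratios) and normalised within arrays by loess, with control and outlier spots at weight 0, in limma 3.58.1 (R 4.3.3). Probes well above background on at least 3 of 4 arrays of a group were kept (25420 of 41174). Probes were named through accessions (22951), symbols (6659) or older symbols (3109) in a RefSeq gene table or kept the file's name (8455), and a gene was represented by its brightest probe; 5872 genes had several. One fit of all 16 arrays with 1 mean per group gave each ratio, the difference and the comparison with resting cells, two-sided, with Benjamini-Hochberg adjustment over 17099 genes. Channel levels were fitted per channel after Aquantile scaling. On simulated data 141 of 150 changed genes were recovered and 6 unchanged genes called. The simulation had independent noise without dye, slide or culture effects. Its changes were all larger than 0.30, the median size among the called genes, so these counts do not cover smaller changes.

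Named genes lead each pattern and direction by size of the difference (sustained: by the smaller ratio), with 1 sign on all arrays of each called time and the brighter channel well above background on 3 of 4; Havcr2 and up to 4 members of each list with the largest differences were added. Other list members named were chosen after their values were seen, and some results are not reported here. The comparison and all 38 lists, with 793 genes, were chosen with earlier results of these data known. The alternatives tried were another offset, Agilent's processed signals, median centring, other probe filters, the mean of probes, the activated arrays alone, the slide and the replicate number as blocks, and each replicate left out.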

Additional observations from a re-analysis of the deposited data

Results flagged for a closer look

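Single arrays stood far from the other 3 of their group for some of the named genes and list examples, by Dixon's test at the 95% level; chance alone gives this in about 1 of 20 groups. On the 2 h array of replicate 1 the log2 ratio of Cd14 was 0.14 and that of Il7r -0.11. On the 2 h array of replicate 2 the log2 ratio of Bbc3 was 0.17, that of Cd24a 0.51 and that of Zfpm1 -0.27. On the 2 h array of replicate 3 the log2 ratio of Plet1 was -0.13. On the 2 h array of replicate 4 the log2 ratio of Fam20c was -0.31 and that of Snap23 0.21. On the 16 h array of replicate 1 the log2 ratio of Cd79b was 0.40 and that of Clec7a -1.32. On the 16 h array of replicate 2 the log2 ratio of Plet1 was 1.82, that of Spry1 -0.073 and that of Tpm4 0.11. On the 16 h array of replicate 3 the log2 ratio of Ccl4 was -0.43, that of Csf1 -0.39, that of Inhba 0.90 and that of Myb -0.29.

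The change of the ratio from 2 h to 16 h differed between activated and resting cells (interaction in limma, adjusted p under 0.05) for most genes named by rule. It was higher in activated cells for Plet1 (by 2.80), Ccdc184 (by 2.01), Igfbp5 (by 1.71), Penk (by 1.53), Cnga1 (by 1.21), Eomes (by 1.21), Sucnr1 (by 1.06), Ccl1 (by 0.99), Myb (by 0.68), Pcyox1l (by 0.66) and Exo1 (by 0.57). It was lower in activated cells for Tnf (-3.05), Csf2 (-2.89), Il2 (-2.39), Nr4a1 (-2.36), Ccl4 (-2.18), Ptgs2 (-2.06), Il4 (-2.02), Hey1 (-2.00), Hbegf (-1.81), Il6 (-1.78), Egr3 (-1.74), Ccl2 (-1.36), Ccl3 (-1.23), Hp (-1.06), Tgfbi (-1.06), Cd14 (-0.94), Emp1 (-0.89), Gstm1 (-0.68), Fam20c (-0.60) and Serpina3g (-0.41). Of 114 further list members taken as examples, the change was higher in activated cells for 16 and lower for 52, against 2.78% and 2.97% of all genes. These examples, like most genes named by rule, were picked by a large difference between the times, which favours such calls.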

How the results depend on the processing

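With median centring and no loess, 5346 genes had a called difference, 11089 were called at 2 h and 13579 at 16 h, with 370 transient, 405 declining, 6842 sustained, 2594 growing and 1664 late genes. Subtracting the resting ratio gave 319 transient, 11 declining, 129 sustained, 12 growing, 468 late and 55 reversed genes, and a minimum of 1.5-fold at each called time gave 173, 6, 35, 3, 131 and 3. Fitting only the 8 activated arrays gave 206 growing genes, and leaving out 3 resting arrays, chosen after seeing the data, gave 196. With the slide as a fixed term 85 genes were declining, 50 growing and 255 reversed. Leaving out each replicate gave 2216 to 2707 called differences, 3863 to 5640 genes called at 2 h, 3531 to 5118 at 16 h and 747 to 929 that differed from resting cells, with 729 to 1029 transient, 87 to 160 declining, 1473 to 1787 sustained, 60 to 112 growing, 729 to 1016 late and 272 to 339 reversed genes. The causes were not tested. Differences that were not called changed sign: Il4ra was 0.25 with median centring, 0.0049 with the slide as a random block and -0.065 to 0.036 without a replicate, and Serpina3g was -0.0064 with the slide as a fixed term. Without a replicate Inhba was at -0.15 to 0.014 and Niban2 at -0.044 to 0.091. With the replicate number as a block 3300 differences and 1182 interactions were called, and no call of a gene named by rule changed; the deviations of same-numbered arrays from their group means correlated at 0.26, 0.38, -0.38 and 0.09 for the tested ratios, so the numbers were not taken to pair the tested ratios, while the IgG channel's levels correlated at 0.45, 0.60, 0.13 and 0.24 and those of anti-TIM-3 at 0.48, 0.55, -0.03 and 0.23, a hint from the data, not the design. Dim genes at 16 h, such as Csf2 and Il2, have ratios limited by signal over background.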

Other observations

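Further gene groups are given here beside all genes, of which 9.14% were higher and 8.05% lower at 16 h. Of 27 genes of Fc-epsilon-RI signalling 5 had a lower ratio at 16 h and none a higher one, with a median difference of -0.02. Of 25 actin cytoskeleton genes 2 were lower and none higher, and of 22 Myc targets and ribosome biogenesis genes 2 were higher and none lower. Among 25 genes of glycolysis and hypoxia 5 were higher and 7 lower, with Ndrg1 going from 0.97 to -0.19 and Ldha, lactate dehydrogenase, from 0.42 to 0.81.

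Of 7 genes listed as basophil markers 4 (Ccl3, Il4, Il13 and Csf1) were lower at 16 h, all of which the cytokine and chemokine lists also hold. Of the 3 fixed basophil markers Mcpt8, Prss34 and Cd200r3, none had a called difference in either direction.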
